A study of Mus musculus with 18 samples.

Results

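The ribosomal protein genes were taken as the genes of the table whose symbol is Rpl or Rps followed by a number, with an optional a, x or l, or is one of Rpsa, Rplp0, Rplp1 and Rplp2. There were 82 such genes of 24116 in the table, 50 named for the large and 32 for the small subunit of the cytoplasmic ribosome. Of these, 76 formed the core list of standard subunit genes, 46 large and 30 small. The other 6 were the paralogues Rpl3l, Rpl10l, Rpl39l and Rps27l and the processed pseudogenes Rps4l and Rpl32l. No member was at 0 in all 18 libraries, 79 were above 0 in every library, and 77 passed the filter for testing.

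RNA came from intestinal organoids of C57BL/6 wild-type mice aged 8 weeks, with 3 libraries on each of days 0 to 5 and 30 wells pooled per library. All groups were wild type, with no transgene or deletion named. Before day 0 the organoids were kept in a commercial growth medium, and from day 0 EGF, Noggin and R-spondin were always present. Wnt3a-conditioned medium at 20% and 10 µM of the ROCK inhibitor Y-27632 were present up to day 3, and 3 µM of the GSK3 inhibitor CHIR99021 up to day 1, so that day and medium change together. The titles name mouse 1 for the first replicate of every day and mouse 3 for the third. For the second they name mouse 2, except on days 1 and 2, where they name mouse 1. Replicate 1 of each day had no DNase step, which gave 6 untreated and 12 treated libraries.

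Ribosomal proteins assemble with ribosomal RNA into the small subunit, which reads the messenger RNA, and the large subunit, which joins the amino acids. Most are held in a single copy per ribosome, their genes are transcribed at high rates in growing cells, and their mRNAs typically begin with a pyrimidine tract through which mTOR signalling controls their translation. They are also the gene family with the most processed pseudogenes in mammalian genomes, which are copies of spliced mRNA inserted elsewhere. Proliferating crypt cells of the intestine are rich in ribosomes.

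Of 14 epithelial markers, 9 were above 60 RPKM in every library, among them Epcam at 349.9 to 505.0 RPKM and Vil1 at 152.2 to 392.5. Those of single cell types were lower or varied more, with the stem cell marker Lgr5 at 0.11 to 32.05, the goblet cell marker Muc2 at 0.278 to 14.8, the enteroendocrine marker Chga at 6.56 to 30.5 and the Paneth cell marker Lyz1 at 7.65 to 333.1. The mesenchymal markers Dcn and Lum were at 0 in all 18 libraries and the 10 mesenchymal markers summed to 0.708 to 6.57 RPKM. In bulk RNA, a change in the cells present and a change in the RNA per cell cannot be told apart. Libraries held an implied 43010000 to 53930000 reads, so that 1 RPKM stands for 43 to 54 reads per kilobase. Over all tested genes, 6 libraries lay nearest to another library of their own day and 12 nearest to a library of another day. Day 4 replicate 3 was farthest from its own day, with a root mean square difference of 0.69 in log2(RPKM + 1), against 0.30 from day 3 replicate 3. Nothing in the labels says whether the libraries of a day came from separate cultures, so p-values measure the spread between these libraries.

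The deposited levels of the members went with how much of the coding sequence is found at no other locus of the annotated transcripts. The sequences below show members with a low and a high share. Each pair gives 60 bases from the middle of a member's coding sequence, from a GENCODE M21 transcript, and the stretch of its closest copy that matches it best. Genome positions are those of the gene or copy on GRCm38 (mm10), and capitals mark bases at which the copy differs.
Rps23 (chr13:90922958-90924950, plus strand; coding exons): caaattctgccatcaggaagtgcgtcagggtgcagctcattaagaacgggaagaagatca
Rps23-ps1 (chr3:37714740-37715164, plus strand; processed pseudogene): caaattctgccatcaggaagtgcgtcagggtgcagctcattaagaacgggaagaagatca
Rpl27 (chr11:101442298-101445529, plus strand; coding exons): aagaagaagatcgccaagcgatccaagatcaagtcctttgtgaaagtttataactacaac
Gm11518 (chr11:94037218-94037628, minus strand; processed pseudogene): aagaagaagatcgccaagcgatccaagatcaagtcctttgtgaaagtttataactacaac
Rpl32 (chr6:115805505-115808747, minus strand; coding exons): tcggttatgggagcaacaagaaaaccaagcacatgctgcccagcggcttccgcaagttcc
Rpl32l (chr10:20208490-20208888, plus strand; processed pseudogene): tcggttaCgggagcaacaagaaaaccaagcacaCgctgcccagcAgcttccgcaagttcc

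The Rps23 stretch and its copy had 0 mismatches over 60 bases, as had the Rpl27 stretch and its copy, whereas Rpl32 and its copy had 3. A 60-base stretch does not stand for the whole gene. Rps9, a small-subunit protein at a mean of 322.6 RPKM, also had 0 mismatches to its copy Gm5905 over such a stretch, but shared 229 of 533 windows with it and had 57.0% unique. Rps23, a protein of the decoding centre, shared 376 of its 380 coding 50-base windows with that copy, and Rpl27 shared all 359 with Gm11518. Rpl32, a large-subunit protein, shared 68 of 356 with Rpl32l. In the table Rpl32 had a mean of 490.9 RPKM and Rpl27 one of 4.47. A 50-base stretch of RNA from a shared window fits both places, and how the authors counted reads that fit several places is not given in the sources used here. For each member, the share of coding 50-base windows found at no other locus of the annotated transcripts was therefore computed. The measure was chosen after the levels had been seen.

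Of the 76 core members, 30 had no unique coding window, 39.5% of the list, against 2.94% of 22466 genes with a coding sequence in the annotation. The median over those genes was 100%. Mean levels over 18 libraries ran from 0.388 RPKM for Rpl24 to 1207 RPKM for Rpl8, a range of 3114-fold among genes whose products are found together in the ribosome. The 30 members without a unique window had mean levels of 0.388 to 210.9 RPKM with a median of 2.52, and 22 of them were under 10 RPKM. The 12 members with up to 10% unique windows had a median of 42.6 RPKM, the 22 with 10 to 40% a median of 129.4, and the 12 above 40% a median of 426.4 with a lowest of 82.7. Spearman's rho between mean level and unique share was 0.85 over the 76 genes, 0.83 over the 46 of the large and 0.89 over the 30 of the small subunit. With 100-base windows it was 0.82 over the 75 genes long enough, and over whole transcripts with untranslated parts 0.42. All points share the same libraries and the same annotation, so the correlation is given as a description.

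**Figure D1:**
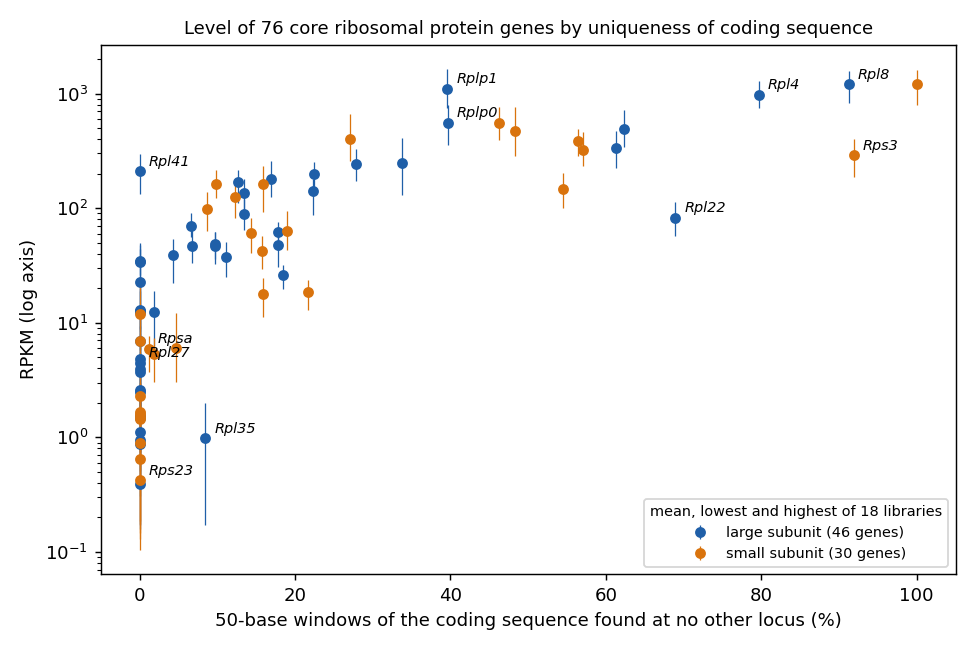
Mean RPKM on a log axis (bars, lowest and highest of 18 libraries) against the percentage of coding 50-base windows found at no other locus, for the 76 core ribosomal protein genes. Genes of both subunits rise from Rps23 at 0% to Rpl8 at 91.3%, while Rpl41 at 0% stands at 210.9 RPKM and Rpl35 at 8.44% near 1 RPKM.

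The highest members included Rpl8, a protein at the peptidyl transferase centre, at 1207 ± 204 RPKM (SD, n = 18), Rplp1, a stalk protein that recruits elongation factors, at 1103 ± 250, Rpl4, which lines the exit tunnel, at 980 ± 157, and the stalk base Rplp0 at 558 ± 109. Their unique shares were 91.3%, 39.6%, 79.7% and 39.7%. Rps23 ran from 0.103 to 1.099 RPKM with a mean of 0.423, and Rpl24 from 0.171 to 0.806 with a mean of 0.388. These values stand for about 25.5 and 18.9 reads per library. Neither gene reached 1 RPKM in 3 libraries, so both failed the filter and were not tested. Rps29 at 0.641, Rpl36a at 0.882, Rps13 at 0.887, Rpl23a at 0.949 and Rpl35 at 0.985 RPKM were the other core members under 1. Of these 7, Rpl35 alone had any unique window, at 8.44%. From these values alone, little mRNA and reads that were not assigned to the gene cannot be told apart.

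Rpl41 and Rpl35, singled out after their values were seen, lay apart from the rest. Rpl41, which encodes the shortest ribosomal protein with only 26 coding windows, had none unique and stood at 133.9 to 296.8 RPKM. Rpl35 had 8.44% unique windows and ran from 0.171 to 2.00 RPKM. The table also holds some of the copies. Rpl14-ps1 was listed at a mean of 496.3 RPKM, above Rpl14 itself at 141.7, with 468 of 602 coding windows shared. Rplp2-ps1 stood at 258.8 beside Rplp2 at 249.7, Gm15772 at 150.5 beside Rpl26 at 168.1, and Rpl37rt at 122.2 beside Rpl37 at 62.1. Gm5148, a further copy of Rps23, was at 0.214 RPKM in the table. It holds 7 listed genes of the ribosome that the naming rule leaves out. Rack1 and Fau are given here, and the levels of the others are not reported. Rack1, a scaffold protein of the small subunit with 98.6% unique windows, had a mean of 945.3 RPKM. Fau, which encodes a small-subunit protein fused to a ubiquitin-like protein and has no unique window, had a mean of 2.78.

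The paralogues known from other tissues were at or near 0. Rpl3l, the heart and skeletal muscle form of Rpl3, ran from 0 to 0.0544 RPKM. Rpl10l, the testis form of Rpl10, ran from 0 to 0.0863, and Rpl39l, the testis form of Rpl39, from 0 to 0.365 with its highest value in day 1 replicate 2. All 3 have mostly or only unique coding windows (100%, 87.5% and 100%) and stand for 1.2, 1.1 and 1.9 reads per library. Rpl39 itself, at the exit tunnel, ran from 88.5 to 179.6 RPKM. Rps27l, a p53-inducible paralogue of Rps27, was at 96.4 to 216.3 RPKM, with 72.9% unique windows. Rps27 was listed at 0.844 to 2.96 with none. The pseudogene Rps4l was at 5.42 to 34.7 RPKM and Rpl32l at 0.668 to 4.24.

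Start sites were examined for the pyrimidine tract. RefSeq start windows (GRCm38.p6) matched 61 of the 82 members with 73 starts. The letters CTTTC lay within 10 bases of the start on the gene's strand for 11 of 73 member starts, 15.1%, against 801 of 32851 starts of all genes, 2.44%. On the other strand they lay in 1 of 73, 1.37%, against 2.23%. CTTCC, which can overlap CTTTC, was found at 15.1% of member starts and 4.21% of all on the gene's strand. The 30 bases around the start are shown for 3 members described below, 15 on each side, with both motifs in capitals.
Rpl28 (chr7:4792950-4792979, plus strand): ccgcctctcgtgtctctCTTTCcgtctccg
Rpl35 (chr2:39005117-39005146, minus strand): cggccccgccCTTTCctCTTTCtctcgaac
Rplp2 (chr7:141447636-141447665, plus strand): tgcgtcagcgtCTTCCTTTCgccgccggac
Rpl28 and Rpl35 are large-subunit proteins, Rpl35 beside the tunnel exit, and Rplp2 is the stalk partner of Rplp1. A match is a description of the letters and shows no binding or control.

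Together the members made up 2.67 to 6.18% of the summed RPKM of a library. The share was 5.07, 5.44 and 6.18% in the 3 libraries of day 0, and between 2.67 and 5.23% in the 15 later ones. Day 3 replicate 2, at 5.23%, was the only later library above the lowest of day 0. The mean share fell from 5.56 ± 0.57% (SD, n = 3) on day 0 to 3.99 ± 0.50% on day 1, and was 4.08 ± 1.08%, 4.202 ± 0.926%, 3.45 ± 0.80% and 3.61 ± 0.12% on days 2 to 5. As summed RPKM the members were at 12320, 13590 and 15750 on day 0 and 10500, 11350 and 12160 on day 5. Days 2 and 3 overlapped day 0, with 13150 and 13210 in replicates 1 and 3 of day 2 and 15000 in replicate 2 of day 3, and the sum over all genes averaged 249200 on day 0 and 314100 on day 5. Weighted by exon length, as a share of reads, the members held 2.39% on day 0 and 1.97% on day 5 on average. The share of reads on days 2 and 3 reached 2.25 and 2.56%, above the 2.14% of the lowest day 0 library.

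Between days, few members passed limma's test on log2(RPKM + 1) at an adjusted p under 0.05. The F test over all days called 1 of 77 members, against 25.3% of the 11111 genes tested. From day 0 to day 1 there were 3 called members, 1 higher and 2 lower, against 18.6% of all genes, 9.54% higher and 9.05% lower. No member and no gene at all passed from day 1 to 2 (0.0%) or from day 2 to 3, with 0 members at an unadjusted p under 0.05 against 263 and 48 genes. From day 3 to 4 no member passed, with 0.036% of all genes called. There 1 member, Rpsa, was at an unadjusted p under 0.05, against 541 of the 11111 genes. From day 4 to 5 no member passed, with 0.189% of genes called and 0 members at an unadjusted p under 0.05 against 454 genes. Day 5 against day 0 gave 2 members, both lower, against 24.4% of genes and 13.0% of genes lower. Day 5 against day 1 gave 6, all lower, against 27.8% and 16.1%. The 3 values of a day lay apart from those of the day before in 1 of 77 members from day 1 to 2 (6.55% of all genes), 1 from day 2 to 3 (1.61%), 6 from day 3 to 4 (5.11%) and 1 from day 4 to 5 (8.21%). The comparisons with day 0, day 1 and day 5 share those libraries. The share of members called was below that of all genes in each of these comparisons with member calls. With quantile normalization it was above for day 5 against day 0, at 35.1% of members and 26.0% of genes.

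The counts moved with the model. With the replicate number as a block the F test called 6 members, day 1 against day 0 called 5, day 5 against day 0 called 6 and day 5 against day 1 called 12, where 31.7, 22.1, 30.4 and 32.8% of all genes were called. With the mouse named in the titles as a factor these counts were 3, 2, 4 and 12, against 30.5, 19.3, 27.1 and 34.5% of all genes. The 12 treated libraries alone gave 0, 1, 0 and 2, against 12.2, 19.0, 10.8 and 15.1%. With 3 libraries left out, a choice made after seeing the data (the first replicate of day 0, the second of day 3 and the third of day 4), they were 10, 6, 6 and 11 of 76 members, against 43.7, 20.9, 29.2 and 38.4%. Without day 4 replicate 3 alone the F test called 11, day 5 against day 0 called 6 and day 5 against day 1 called 14, against 45.5, 32 and 35.7% of all genes. Without day 2 replicate 2 alone day 1 against day 0 called 8, against 19.5% of all genes.

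Rpl27, a large-subunit protein, had the clearest course over the days. Its RPKM was 2.88, 2.49 and 3.08 on day 0, 6.77, 7.67 and 5.07 on day 1, and 7.85, 4.64 and 7.30 on day 2. It was 3.03, 5.72 and 5.62 on day 3, 1.87, 2.86 and 5.82 on day 4, and 2.89, 2.57 and 2.42 on day 5. The values of days 1 and 2 all lay above those of days 0 and 5, and days 3 and 4 spread over both. On the log2(RPKM + 1) scale it rose by 0.96 ± 0.28 (SE, n = 3 per day, limma adjusted p = 0.0257) from day 0 to 1 and was lower by -1.03 ± 0.28 on day 5 than on day 1 (adjusted p = 0.0158). The F test over all days gave an adjusted p of 0.0236. The rise was no longer called without any single library of day 0 or without day 1 replicate 1 or 2 (limma adjusted p = 0.0522 to 0.0938). The fall was no longer called without day 1 replicate 1 or 2 or day 5 replicate 3 (limma adjusted p = 0.0507 to 0.0612). Rpl27 has no unique coding window and 11 loci elsewhere that share some, so the values may include RNA of its copies, whose part was not tested.

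Of the members that fell from day 0 to day 1, Rps4x, the X-linked form of a small-subunit protein, stood at 216.2, 206.1 and 212.7 on day 0 and 152.4, 138.0 and 135.9 on day 1, a change of -0.57 ± 0.18 (limma adjusted p = 0.0350, n = 3). Leaving out any single library of day 0 or day 1 ended that call (limma adjusted p = 0.0520 to 0.106). In 31 of the 77 members the 3 values of day 1 lay apart from the 3 of day 0, against 41.2% of all genes.

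Day 5 against day 0 called Rpl10 and Rpl3. Rpl10, which completes the large subunit late in its maturation, stood at 5.79, 5.32 and 4.77 RPKM on day 0 and 1.51, 2.08 and 2.46 on day 5, a log2 difference of -1.07 ± 0.34 (limma adjusted p = 0.0330, n = 3). Day 4 replicate 3, at 8.15, was above all other libraries. Rpl3, which reaches into the peptidyl transferase centre, stood at 41.2, 47.0 and 53.9 on day 0 and 29.8, 26.9 and 29.1 on day 5, a difference of -0.70 ± 0.23 (limma adjusted p = 0.0372, n = 3). The Rpl10 call was lost without any single library of day 0 or without day 5 replicate 1 or 2 (limma adjusted p = 0.0675 to 0.125). That of Rpl3 was lost without day 0 replicate 2 or 3 or any library of day 5 (limma adjusted p = 0.0685 to 0.122). Rpl10 has no unique coding window and Rpl3 has 4.31%. In 32 of 77 members the values of day 5 lay apart from those of day 0, against 54.1% of all genes.

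Day 5 against day 1 called Rpl10, Rpl27, Rpl28, Rpl35, Rps27a and Rps28, all lower on day 5. Rpl35 stood at 1.80, 2.00 and 1.57 RPKM on day 1 and 0.550, 0.360 and 0.602 on day 5, a log2 difference of -0.89 ± 0.25 (limma adjusted p = 0.0198, n = 3). Rps28, a small-subunit protein at the mRNA exit, stood at 1.23, 3.69 and 2.27 on day 1 and 0.173, 0.843 and 0.758 on day 5, a difference of -1.06 ± 0.35 (limma adjusted p = 0.0386). Rpl28 stood at 1.83, 3.37 and 1.70 against 0.655, 0.938 and 0.928. Rps27a, made as a fusion with ubiquitin, stood at 3.16, 3.06 and 3.02 against 1.12, 1.19 and 1.58. The groups did not overlap in any of the 6. They lay apart in 25 of the 77 members, against 52.9% of all genes. Of these 6, Rpl35 had unique coding windows and the other 5 had none. Each call was lost without at least 3 of the 18 libraries taken singly, with limma adjusted p-values of 0.0507 to 0.169 where lost, and 12 of the 18 single omissions ended that of Rps27a. Without day 1 replicate 2, none of the 76 members then tested was called, against 14.9% of all genes.

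**Figure D2:**
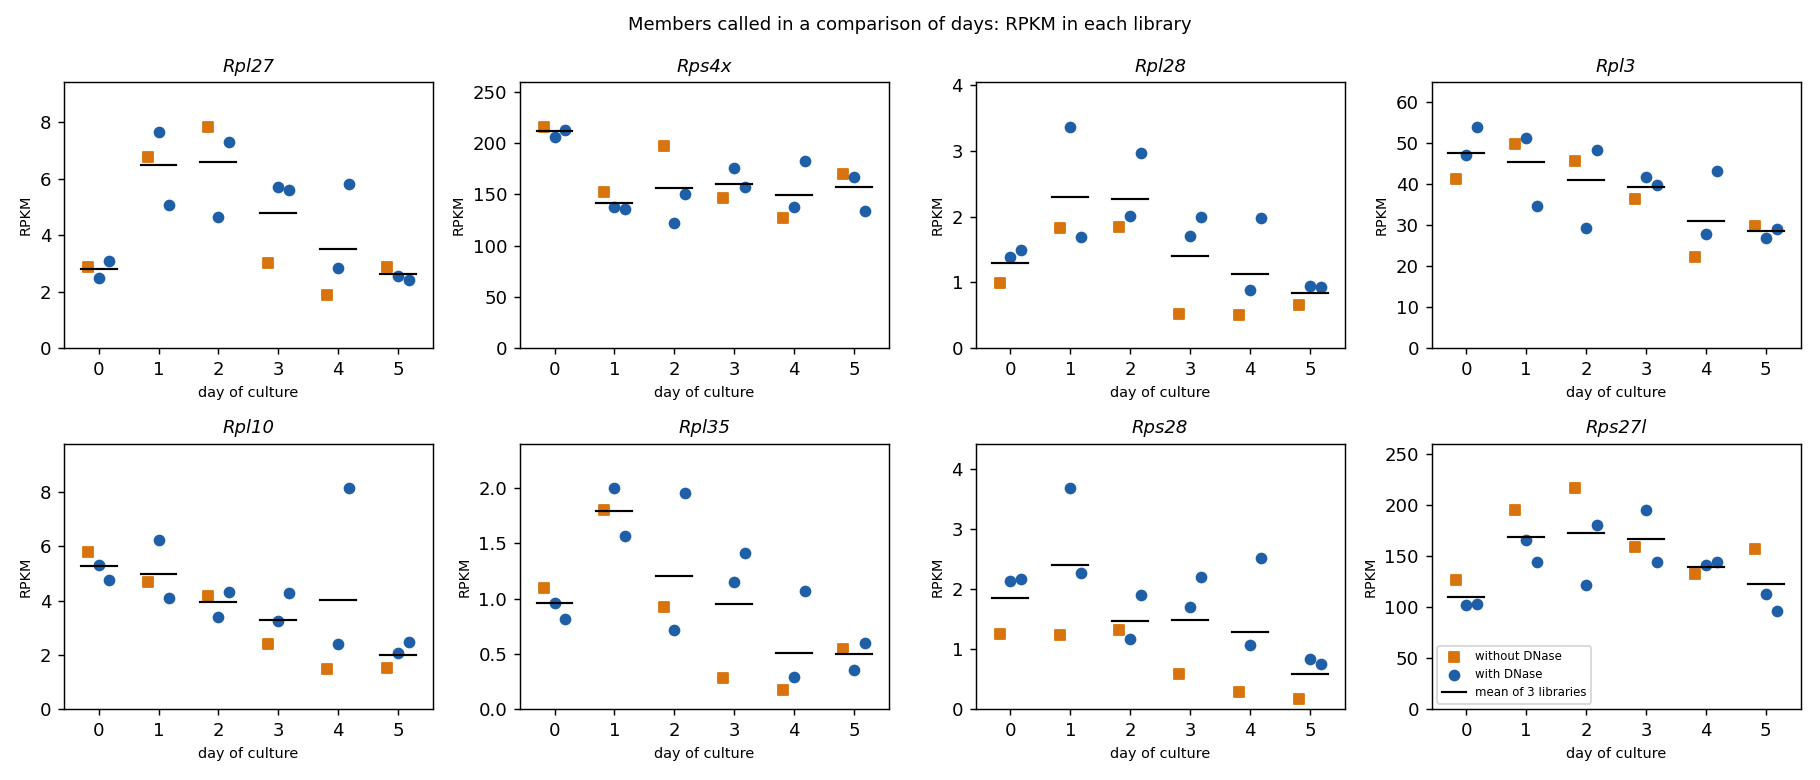
RPKM of 8 members in each of the 18 libraries by day, with a line at the mean of the 3 libraries (squares, no DNase; circles, DNase). Rpl27 is highest on days 1 and 2, Rps4x is highest on day 0, and Rpl10 and Rpl3 are lower on day 5 than on day 0.

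Members with and without unique coding windows had different courses, which an average over all members hides. From day 0 to day 1 the 46 core members with unique windows had a median log2 change of -0.31 and were lower in 42 of 46. The 28 tested core members without one had a median of 0.16 and were higher in 20 of 28, against a median of -0.00 over all 11111 genes, of which 49.8% were higher. Under the 3 rescalings of the libraries these medians were -0.27 to -0.56 and 0.07 to 0.26, so the opposite signs remained. Between days 5 and 1 the medians were 0.05 and -0.44, with 29 of 46 and 1 of 28 members higher on day 5. That of the class with unique windows changed sign to -0.12 with libraries rescaled to an equal sum, -0.16 with quantile normalization and -0.03 with the mouse as a factor, while that of the other class lay at -0.37 to -0.81 under the rescalings. Between days 5 and 4 they were 0.14 and -0.14, but 0.25 and 0.15 without the 3 libraries named above and -0.01 and -0.36 in the 12 treated libraries. Between days 5 and 0 both classes were lower, with medians of -0.31 and -0.29 against -0.17 over all genes (-0.11 and -0.19 against -0.01 with median-of-ratios rescaling), and so they were between days 4 and 3, with -0.21 and -0.19 against -0.09. These are counts and medians with no test, and the comparisons share libraries.

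By the highest day mean, 38 of the 46 members with unique windows peaked on day 0 and 31 had their lowest mean on day 4. Of the 30 without one, 19 peaked on day 1 or 2 and 22 had their lowest mean on day 5. Over all tested genes, 33.6% peaked on day 0, 24.1% on day 1 and 12.6% on day 2. Of the same genes, 12.3% were lowest on day 4 and 38.8% on day 5. The library medians of the class with unique windows, centred per gene, were 0.13, 0.27 and 0.43 on day 0 and -0.00, 0.04 and -0.20 on day 1, so the 2 days did not overlap. Those of the other class were -0.07, 0.03 and 0.05 on day 0, 0.24, 0.46 and 0.04 on day 1, and -0.32, -0.29 and -0.28 on day 5. Its day 5 libraries were close together and below those of days 0, 1 and 2, while day 4 spread from -0.57 to 0.40.

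**Figure D3:**
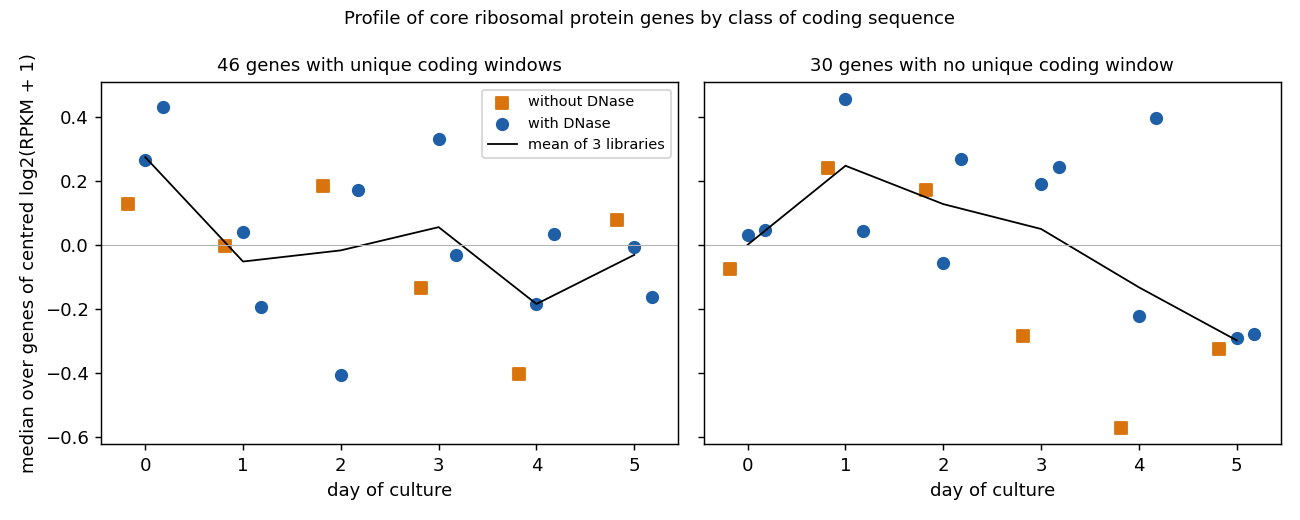
Median over genes of log2(RPKM + 1), centred per gene over 18 libraries, for core members with unique coding windows (left, 46 genes) and without (right, 30 genes), by day (squares, no DNase; circles, DNase; line, mean of 3 libraries). The left class is highest on day 0, and the right class is highest on day 1 and lowest on day 5, with day 4 replicate 3 at 0.40 far above the other libraries of its day.

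Profiles of single members were also set against that of the rest. The correlation of a member's 18 centred values with the median of the other 75 core members had a median of 0.83 over the 46 members with unique windows and 0.58 over the 30 without, where the points share libraries and the values are descriptions. The larger class weighs more in that reference, which by itself favours its members. The classes also differ in level, with medians of 129.4 and 2.52 RPKM, so the gap is no separate evidence of a division. Rpl8 at 0.95 and Rps24 at 0.93 were most like the rest. Rpl5, which with Rpl11 and the 5S RNA can bind and hold back the p53 inhibitor Mdm2, was the least at -0.02, ranging from 8.82 to 18.7 RPKM with no unique window. Rpl11 ranged from 1.72 to 5.602 RPKM. Among members with unique windows Rps14, whose loss in humans underlies an anaemia, was the least like the rest at 0.42. It ran from 285.2 to 757.5 RPKM, with the highest value in day 5 replicate 1.

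After the median of the tested members was subtracted in each library, the F test over days called 2 of 77 members, against 13.7% of all genes. Rpl27 spanned 1.27 in log2 between its highest and lowest day (limma adjusted p = 0.00362), and this call held under all 27 alternatives that gave a value. Rps27l, the paralogue of Rps27, spanned 0.91 (adjusted p = 0.0286). It stood at 126.5, 101.7 and 102.7 RPKM on day 0, 194.7, 165.5 and 144.3 on day 1, and 157.2, 112.6 and 96.4 on day 5. Days 0 and 1 did not overlap, and days 0 and 5 did. The Rps27l call was lost without any of 5 single libraries, day 0 replicates 2 and 3, day 1 replicate 1, day 2 replicate 3 and day 5 replicate 2 (limma adjusted p = 0.0556 to 0.155). With the replicate block 8 members were called, against 15.7% of all genes, and with the mouse as a factor 4, against 16.6%.

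Members with a known role beyond the core passed no test between days where not named above. Rplp0, Rplp1 and Rplp2 had log2 changes of -0.52, -0.32 and -0.40 from day 0 to day 1 (limma adjusted p = 0.103, 0.440 and 0.469). Rps19, the gene most often mutated in Diamond-Blackfan anaemia, went from 72.8, 80.1 and 93.9 RPKM to 56.4, 63.9 and 43.5, apart in all libraries, with a change of -0.59 (limma adjusted p = 0.0599). Rpl22 and Rpl26, both linked to p53 control, changed by -0.41 and -0.26 (adjusted p = 0.142 and 0.408). Rps6, the target of S6 kinase, ran from 3.58 to 11.99 RPKM over the libraries with -0.16 (adjusted p = 0.807), and Rpsa, the laminin-binding small-subunit protein, from 3.74 to 7.61 with -0.04 (adjusted p = 0.904).

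Large- and small-subunit members had similar changes between days. The tested large- and small-subunit members had median log2 changes of -0.16 and -0.22 from day 0 to 1, -0.21 and -0.21 from day 3 to 4, and -0.30 and -0.31 from day 0 to 5. Levels of both core groups were also similar, with medians of the gene means of 37.95 RPKM over the large and 30.5 over the small subunit. The ratio of summed large- to summed small-subunit RPKM was 1.46 ± 0.08 (SD, n = 3) on day 0, 1.49 ± 0.05 on day 1, 1.502 ± 0.062 on day 2, 1.48 ± 0.07 on day 3, 1.47 ± 0.08 on day 4 and 1.44 ± 0.08 on day 5. Each of these means lay within the range of the 3 libraries of every other day. The ratio is set by few genes, and without Rplp1 and Rplp2 it was 1.17 on both days 0 and 5.

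Within every day the lowest ratio was that of the library without DNase. The 6 untreated libraries had ratios of 1.37, 1.43, 1.43, 1.40, 1.39 and 1.35 on days 0 to 5, and the 12 treated libraries had 1.47 to 1.56, so the 2 sets did not overlap in this summed ratio. In measures that weigh the core genes alike they did overlap. The ratio of the large to the small median was 1.10 to 1.44 in untreated and 1.11 to 1.45 in treated libraries. The large minus small difference in mean log2(RPKM + 1) averaged 0.144 and 0.142. Replicate 2 of days 1 and 2, treated and from mouse 1 by the titles, had summed ratios of 1.53 and 1.52. On the other days the untreated library is also the only one of mouse 1, and the cause of the difference was not tested. Without Rplp1 and Rplp2 the untreated libraries had 1.105 to 1.185 and the treated 1.183 to 1.254, with day 1 replicate 1 just above the lowest treated value. Of the nuclear RNAs, Malat1 averaged 6.07 RPKM in untreated and 14.5 in treated libraries, and Neat1 8.41 and 33.0. Their part in the difference was not tested.

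**Figure D4:**
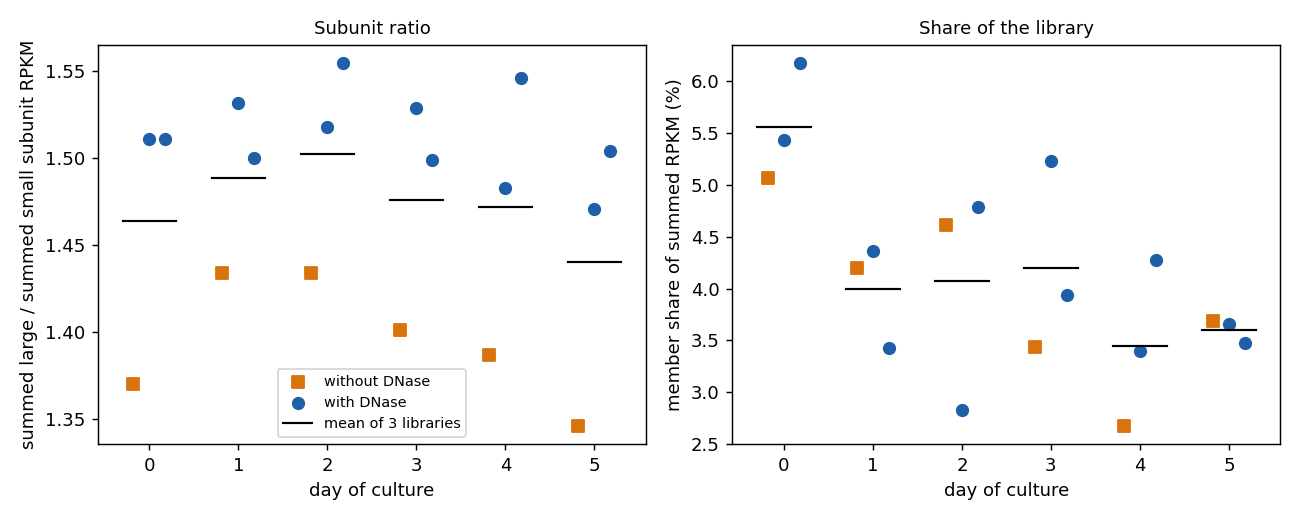
Ratio of summed large- to summed small-subunit RPKM (left) and share of the members in the summed RPKM of the library in percent (right), by day, for 18 libraries (squares, no DNase; circles, DNase; bars, mean of 3). All untreated libraries lie at or below 1.43 and all treated ones at or above 1.47, and the share is highest on day 0.

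A comparison of untreated with treated libraries, with the day in the model, was added after the ratios had been seen. It called 11 of 77 members, against 11.0% of all genes. With median-of-ratios rescaling it called 7 higher and 9 lower, against 13.2% of all genes. As deposited, 2 members were higher and 9 lower without DNase, against 3.68% and 7.30% of all genes. Rpl10a, which forms the L1 stalk, had the largest difference among the members, at 13.9 ± 9.06 RPKM (SD, n = 6) in untreated and 27.1 ± 11.5 (n = 12) in treated libraries, a log2 difference of -1.02 ± 0.23 (limma adjusted p = 0.0154). Rpl12, at the stalk base, and Rps12 followed with -0.87 and -0.78, and others were Rps28 with -0.66, Rplp2 with -0.65, Rpl9 with -0.62, Rps13 with -0.46 and Rpl28 with -0.44. Rplp2 ran from 131.0 to 224.7 RPKM in untreated and from 197.1 to 407.7 in treated libraries. Higher without DNase were Rps6, at 9.09 ± 1.68 against 5.79 ± 1.73, with 0.59 ± 0.16 (limma adjusted p = 0.0338), and the pseudogene Rpl32l, with 0.59 ± 0.14 (adjusted p = 0.0184).

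8 of the 9 lower members had no unique coding window, Rplp2 being the exception, as 28 of the tested core members had none and 46 had some. The class medians were -0.24 and -0.04, against -0.05 over all genes. With the mouse as a factor, which leaves replicates 1 and 2 of days 1 and 2 to tell mouse 1 from the missing DNase step, no member and only 8 genes in all were called. On the other days DNase treatment and mouse cannot be told apart. Leaving out day 3 replicate 1 left 2 member calls, with 3.91% of all genes called. Of the 18 omissions of a single library, 10 ended the call of Rps6, 10 that of Rps12, 13 that of Rps13 and 14 that of Rpl28.

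**Figure D5:**
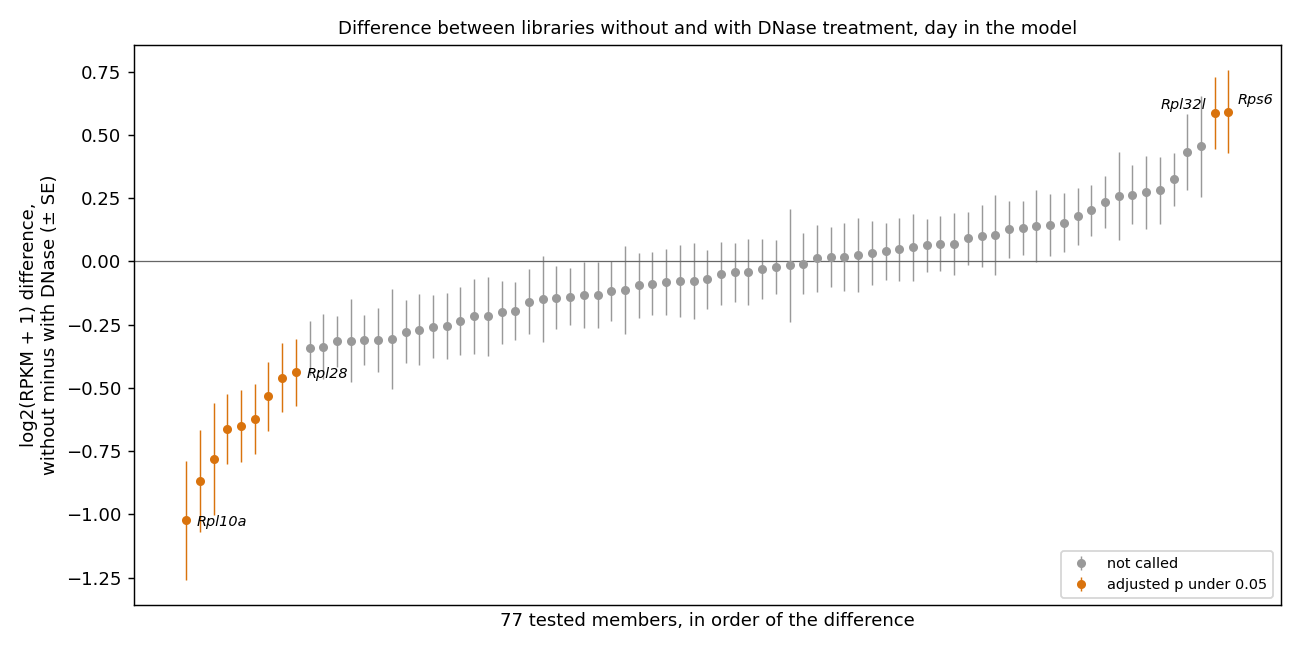
Difference in log2(RPKM + 1) between libraries without and with DNase, with its SE, for the 77 tested members in order of the difference, with 4 called members named. The 9 called lower members run from Rpl10a at -1.02 to Rpl28 at -0.44, and Rpl32l and Rps6 at 0.59 are called higher.

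Lists around the members gave other counts. Of 76 tested mitochondrial ribosomal protein genes, which build the separate ribosome of mitochondria, 32 rose and none fell from day 0 to day 1, where 9.54% of all genes rose. Mrpl20 rose by 1.12 ± 0.16 (limma adjusted p = 0.000326) and Mrps34 by 0.79 ± 0.20 (adjusted p = 0.0124). Between days 5 and 1, 40 of the 76 were lower and none higher, where 16.1% of all genes were lower. Their median log2 differences were 0.43 and -0.49. Of 30 initiation factors 3 rose and 1 fell on day 1, where 9.54% of all genes rose and 9.05% fell. Of the same 30, 19 were lower on day 5 than on day 1, where 16.1% of all genes were lower. Their median difference between those days was -0.64.

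Of 8 elongation factors 1 rose and 3 fell from day 0 to day 1, where 9.54% of all genes rose and 9.05% fell. Eef1b2, which recharges elongation factor 1, fell by 0.69 on the log2 scale (limma adjusted p = 0.0302), and Eef2, which moves the ribosome along, by 0.50 (adjusted p = 0.0433). Of 19 other genes with a terminal pyrimidine tract, some of them also in the factor lists, 4 fell and 1 rose against the same background. Tpt1, with no unique coding window, fell by 0.86 (adjusted p = 0.0397), and Fau, also without one, rose by 0.56 (adjusted p = 0.0498). Of 7 ribosomal protein genes outside the naming rule, 2 rose and none fell against that background, namely Fau and Rpl7l1. Rpl7l1, a paralogue of Rpl7, rose by 0.75 (limma adjusted p = 0.0149).

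Among 24 genes of growth signalling, 2 rose and 6 fell from day 0 to day 1, against 9.54% and 9.05% of all genes. Pdcd4, an inhibitor of initiation that S6 kinase marks for degradation, fell by 3.15 on the log2 scale (limma adjusted p = 6.97e-05) and was higher by 3.00 on day 5 than on day 1 (adjusted p = 0.000143). Ddit4, an inhibitor of mTOR complex 1, fell by 1.43 (adjusted p = 0.00905), and Mxd1, a Myc antagonist, rose by 1.45 (adjusted p = 0.0255). Among 19 genes that chaperone ribosomal proteins or sense their excess, 1 rose and 1 fell on day 1, against the same 9.54% and 9.05%. On day 5 9 were lower and none higher than on day 1, where 16.1% of all genes were lower. The 9 lower genes included Heatr3, an import chaperone of Rpl5, at -1.14 (adjusted p = 0.00838), Rpf2, which brings Rpl5, Rpl11 and the 5S RNA into the large subunit, at -1.10 (adjusted p = 0.00943), and Grwd1, the chaperone of Rpl3, at -1.27 (adjusted p = 0.0265).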

How the data were processed

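RPKM values were deposited by the authors for 24116 genes in 18 libraries. Per the submitters' processing notes, bcl2fastq 2.17, STAR 2.5.2b and edgeR 3.20.5 were used with mm10. For their roles and settings, the annotation, strand and reads with several matches, nothing is given in the sources used here. Depth was implied from values that 1 read gives.

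A gene was tested if 3 or more libraries reached 1 RPKM, which left 11111. The log2(RPKM + 1) values of all 18 libraries, sharing 1 estimate of the spread, went into a limma fit with a trend (limma 3.58.1, R 4.3.3). Tests are two-sided with Benjamini-Hochberg adjustment over all genes. Changes on this scale understate those of low genes. The fit was tested on simulated data. The members and lists were chosen with earlier results of these data known. Named are, per comparison, up to 5 called members in each direction, the 5 highest and 5 lowest, a fixed list of members with known roles, and up to 4 called genes of each other list. Unique windows came from GENCODE M21 transcripts, both strands, overlapping genes counted as 1 locus. Deviations from day means correlated between -0.52 and 0.81 over same-numbered libraries and did not separate pairs of the same mouse from others, so any pairing rests on the titles alone. The alternatives are described at the end. Some members and genes counted here are not reported by name.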

Additional observations from a re-analysis of the deposited data

How the results depend on the processing

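The number of members called at an adjusted p under 0.05 depended on the settings, and the cause was not tested. Percentages in brackets are the share of all genes called. From day 0 to day 1, in place of 3, it was 5 with median-of-ratios rescaling (20.4%), with rescaling to an equal sum (16.9%) and with the replicate block (22.1%). It was 12 with quantile normalization (18.6%), 24 with array weights (39.3%), 1 in the 12 treated libraries (19%) and 8 with only the 2 days fitted (21%). For day 5 against day 0, in place of 2, it was 0 with no filter (15.8%) and in the treated libraries (10.8%), 34 with an equal sum (45.5%) and 27 with quantiles (26.0%). It was 6 with the replicate block (30.4%), 4 with the mouse as a factor (27.1%), 47 with array weights (63.4%) and 13 with only the 2 days (37.5%). For day 5 against day 1, in place of 6, it was 3 with no filter (14.8%) or a filter at 5 RPKM (33%) and 11 with an equal sum (31.5%). It was 12 with quantiles (29.2%), the replicate block (32.8%) or the mouse (34.5%), 25 with array weights (50.8%), 2 in the treated libraries (15.1%) and 14 with only the 2 days (39.1%). The F test, in place of 1, gave 5 with an equal sum (28.1%), 14 with quantiles (26.8%), 6 with the block (31.7%) and 3 with the mouse (30.5%). It gave 60 with array weights (81.8%) and 0 in the treated libraries (12.2%). Relative to the member median, in place of 2, it gave 1 with no filter (8.29%) and in the treated libraries (6.73%). It gave 16 with quantiles (28.6%), 8 with the block (15.7%), 4 with the mouse (16.6%) and 42 with array weights (78.3%). Array weights, from 0.246 for day 4 replicate 3 to 8.56 for day 4 replicate 2, also gave 20 calls (31.2%) from day 3 to 4 and 1 (13.5%) from day 4 to 5. The DNase comparison, in place of 11, gave 7 with no filter (5.71%), 5 with a filter at 5 RPKM (11.4%), 0 with the mouse (0.072%) and 18 with array weights (27.4%).

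Leaving out each library in turn gave 1 to 8 members for day 1 against day 0, 0 to 6 for day 5 against day 0, 0 to 14 for day 5 against day 1, 0 to 11 for the F test, 1 to 4 relative to the member median and 2 to 15 for the DNase comparison, and 0 for every comparison of later neighbouring days. Of all genes, the same omissions called 10.6 to 21.7%, 7.74 to 32%, 13.3 to 35.7%, 14.3 to 45.5%, 4.56 to 24.9% and 3.91 to 15.2% in the first 6 of these. No named call changed direction under any of these settings. Rescaling moved the median over all genes, from -0.17 to -0.51 for day 5 against day 0 with an equal sum, where the member median was -0.64. There 771 genes were called higher and 4280 lower, against 1268 and 1446 as deposited and 1600 and 1131 with median-of-ratios rescaling. With median-of-ratios rescaling the member median for day 5 against day 1 was 0.04 in place of -0.09. Without the 3 doubted libraries (the first of day 0, the second of day 3, the third of day 4), chosen after seeing the data, the calls were 6 for day 1 against day 0, 6 and 11 for day 5 against days 0 and 1, 10 for the F test, 3 relative to the member median and 12 for the DNase comparison. In the same order, 20.9, 29.2, 38.4, 43.7, 23.5 and 12.5% of all genes were called. At 43 to 54 reads per kilobase for 1 RPKM, members under 1 RPKM rest on few reads.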
